A study of Homo sapiens with 29 samples.

Results

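In all, 10 genes of the Hippo pathway were followed through the data: the transcriptional coactivators YAP1 (YAP) and WWTR1 (TAZ), their DNA-binding partners TEAD1, TEAD2, TEAD3 and TEAD4, the TEAD repressor VGLL4, the kinases LATS1 and LATS2, and NF2, which encodes the scaffold protein merlin. They were chosen by name, with earlier results of these data known, and are 10 of the 35579 genes to which the deposited transcripts were summed. RNA came from 10 lines of PC9 cells, an established lung adenocarcinoma line that depends on mutant EGFR and is sensitive to erlotinib (E), an inhibitor of the EGFR kinase. The lines were the parental cells (PAR), an AXL knockout made from PAR by CRISPR/Cas9 cutting in the kinase domain (KO), and 8 lines made from KO cells by lentiviral transduction and sorting on GFP. Of these 8, WT received the unaltered receptor, KD a receptor whose kinase is dead, and Y634F, Y643F, Y698F, Y726F, Y750F and Y821F receptors in which the tyrosine named was replaced by phenylalanine. AXL is a receptor tyrosine kinase that can bypass EGFR inhibition. Each of the 9 lines other than PAR thus shared the knockout of the cells' own AXL, and the transduced lines were mixed populations rather than clones. Dishes seeded with 300000 cells were left untreated (UT), or were treated for 24 h with E or with E and AF154, an antibody that activates AXL (EA). The concentrations in the study's assays were 1 μM erlotinib and 300 ng/mL AF154, and they were not restated for the RNA samples. The time at which UT dishes were harvested is not given in the sources used here.

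There was 1 library per line and treatment, 29 in all: 10 UT, 10 E and 9 EA, since KO with EA was not analysed here. Lines were therefore the replicates of a treatment, and a p-value measures the spread between lines that carry different receptors. Values were TPM, a length-corrected share of the transcripts of a library, and the depth behind them is unknown. AXL, the targeted gene, was lowest in KO, at 92.4 TPM UT and 79.3 TPM with E, and lay between 217 and 852 TPM in the 27 other libraries. The epithelial markers EPCAM, CDH1, KRT8, KRT18 and KRT19 were present in every library, with no value under 60.8 TPM. Markers of a mesenchymal state were present as well: FN1 at 86.2 to 417.6 TPM, VIM at 13.05 to 44.8 TPM and CDH2 at 7.81 to 27.3 TPM. The lung adenocarcinoma markers NKX2-1, NAPSA and SFTPB were low, with highest values of 0.354, 5.32 and 1.09 TPM. The 4 leukocyte markers did not exceed 1.003 TPM, with CD3E listed at 0 throughout, and the 3 endothelial markers did not exceed 9.60 TPM. Of the 3 fibroblast markers COL1A1 lay between 15.3 and 70.9 TPM, while COL1A2 and PDGFRB did not exceed 0.338 and 3.54 TPM.

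In the Hippo pathway, merlin and other proteins at cell junctions promote the activity of the LATS kinases, and LATS kinases phosphorylate YAP and TAZ, which keeps them out of the nucleus or marks them for degradation. Free of this restraint, YAP and TAZ enter the nucleus and bind TEAD proteins, which hold the DNA contact. VGLL4 binds the same TEADs and competes with YAP. LATS2 is itself a known transcriptional target of YAP and TEAD and so part of a negative feedback loop. The pathway is largely controlled by phosphorylation and location of the proteins, neither of which is measured by RNA.

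Promoter sequences are shown for 3 genes: LATS2, the kinase gene that rose with E, YAP1, which did not pass the test, and TEAD2, which rose most. No gene that fell is shown. The promoters of LATS2 and YAP1 are the only ones of these genes found to hold the TEAD letters, so the 3 shown over-represent them. Each is 250 bases before and 30 after a transcript start, read 5′ to 3′ on the gene's strand, from RefSeq on GRCh38.p14. Capitals mark the TEAD letters CATTCC or their reverse complement GGAATG, and none of the 3 held the AP-1 letters TGANTCA on either strand.
LATS2 (chr13:21061557-21061836, minus strand): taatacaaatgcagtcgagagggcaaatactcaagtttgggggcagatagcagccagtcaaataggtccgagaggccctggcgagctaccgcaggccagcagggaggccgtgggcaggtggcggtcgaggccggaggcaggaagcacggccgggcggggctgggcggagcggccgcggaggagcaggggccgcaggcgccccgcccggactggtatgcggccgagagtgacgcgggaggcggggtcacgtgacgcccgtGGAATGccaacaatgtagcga
YAP1 (chr11:102110197-102110476, plus strand): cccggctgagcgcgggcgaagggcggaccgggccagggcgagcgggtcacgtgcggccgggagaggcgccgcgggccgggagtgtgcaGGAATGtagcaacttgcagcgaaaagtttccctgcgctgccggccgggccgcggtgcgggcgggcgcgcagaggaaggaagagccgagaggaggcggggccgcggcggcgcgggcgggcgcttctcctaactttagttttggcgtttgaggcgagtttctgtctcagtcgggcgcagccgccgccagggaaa
TEAD2 (chr19:49362387-49362666, minus strand): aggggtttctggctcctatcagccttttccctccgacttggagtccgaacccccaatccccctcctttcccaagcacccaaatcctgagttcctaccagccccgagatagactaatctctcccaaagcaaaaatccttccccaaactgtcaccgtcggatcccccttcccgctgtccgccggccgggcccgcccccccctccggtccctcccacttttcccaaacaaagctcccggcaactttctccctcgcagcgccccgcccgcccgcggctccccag
In LATS2 the letters GGAATG began at base 10 of the transcript, and in YAP1 at base -162, counted back from the transcript start. RefSeq promoters were at hand for 8 of the 10 genes, 16 promoters in all. TEAD1 and TEAD4 had none in the table used. The TEAD letters stood in 2 of the 16, those of LATS2 and YAP1, and in 13.3% of 35116 human promoters of the same length. A further TEAD2 promoter, not shown, held neither the TEAD nor the AP-1 letters. The AP-1 letters stood in 1 of the 16, a LATS1 promoter, and in 7.35% of all. A match describes the letters only and was not tested for binding.

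RNA of all 10 genes was detected in every library, and the range of their levels was wide. Averaged over the 29 libraries, YAP1 had the highest TPM of the 10, at 92.3, followed by TEAD2 at 80.4, TEAD4 at 49.9, VGLL4 at 49.1, WWTR1 at 44.9, TEAD3 at 35.3, TEAD1 at 33.6, NF2 at 21.2, LATS2 at 14.3 and LATS1 at 7.56. LATS1 was the only one under 10 TPM, the mean level that the tests required. LATS2 passed it through the treated libraries, since its UT mean was 8.94 TPM. The order of the genes changed with treatment. In UT libraries YAP1 stood above TEAD4 in 10 of 10 libraries, TEAD4 above WWTR1 in 9 of 10, and both above TEAD2. With E, TEAD2 stood above YAP1 in 10 of 10 libraries and VGLL4 above TEAD4 in 10 of 10. With EA, TEAD2 was above YAP1 in 4 of 9 libraries, so these neighbours were not separated. Neighbours whose order varied most between lines of UT and E were TEAD1 and NF2 UT (7 of 10 libraries), TEAD4 and TEAD3 with E (7 of 10), WWTR1 and TEAD1 with E (7 of 10), and LATS2 and NF2 with E (6 of 10). With EA they were NF2 and LATS2 (5 of 9), TEAD3 and WWTR1 (6 of 9) and WWTR1 and TEAD1 (6 of 9). The order also differed in 1 or 2 libraries for LATS2 and LATS1, NF2 and TEAD3, and TEAD4 and WWTR1 UT, for TEAD3 and WWTR1 with E, and for TEAD4 and TEAD3 with EA.

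**Figure D1:**
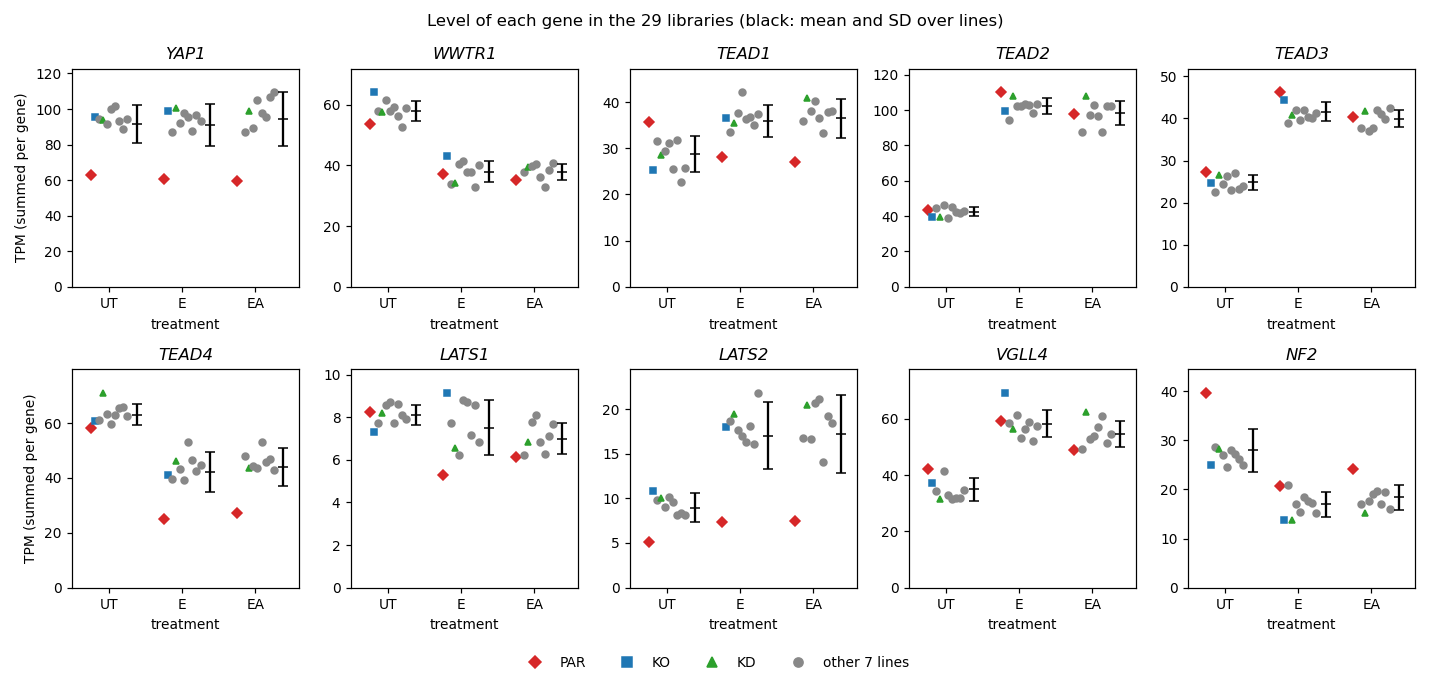
Level of each of the 10 genes in TPM (vertical axis, from 0) by treatment (UT, E, EA); each point is 1 library, with PAR, KO and KD marked and the other 7 lines in grey, and the black bar is the mean with the SD over lines. TEAD2 moved from 39.0 to 46.5 TPM UT to 94.3 to 110.3 TPM with E, whereas YAP1 lay between 86.9 and 109.6 TPM in the other lines and between 59.7 and 63.1 TPM in PAR under all 3 treatments.

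E was compared with UT in all 10 lines, to ask which of these genes differ between untreated cells and cells at 24 h of EGFR inhibition. The 5 genes that rose were TEAD2, LATS2, VGLL4, TEAD3 and TEAD1, and the 3 that fell were NF2, WWTR1 and TEAD4. YAP1 did not pass. Thus 8 of the 9 genes tested, LATS2 included, passed a Benjamini-Hochberg adjusted p of 0.05 in limma, beside 79.0% of all 9085 genes tested. Among all genes 36.4% rose and 42.6% fell, so a count of 8 of 9 is near the background and the values below describe size and direction. Whether the UT and E ranges overlapped was looked at for these genes only. The share of all genes without overlap was not computed, so a lack of overlap is not read as particular to them. In the fit of 14111 genes that required a mean of 1 TPM, which LATS2 met in UT as well, 8 of the 10 genes passed, beside 71.8% of all genes. In bulk RNA a change in the share of cells that express a gene and a change in RNA per cell cannot be told apart.

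YAP1 (ENSG00000137693, chromosome 11 from 102110461 to 102233423, GRCh38) encodes the main coactivator of the pathway. Its UT level had a lowest value of 63.1 TPM, in PAR, a median of 94.0 and a highest of 102 TPM. With E the lowest was 60.6 TPM, again in PAR, the median 94.5 and the highest 101 TPM. The ranges of the 2 treatments overlapped almost fully. On the scale of log2(TPM + 1), which is used for all differences here, E minus UT was -0.013 (standard error 0.032, 95% interval -0.082 to 0.056, adjusted p = 0.729 in limma), with 4 lines higher and 6 lower.

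WWTR1 (ENSG00000018408, chromosome 3 from 149517235 to 149736714), the gene of the paralogous coactivator TAZ, fell in 10 of 10 lines. UT values ran from 52.7 TPM through a median of 58.0 to 64.3 TPM, and E values from 32.8 through 37.99 to 43.2 TPM. The highest E value, in KO, was below the lowest UT value, in Y750F. The log2 difference was -0.60 (standard error 0.037, adjusted p = 1.29e-09 in limma). As a TPM ratio this was a geometric mean of 0.652, from 0.582 in WT to 0.715 in Y643F. The ratio of YAP1 to WWTR1 TPM went from 1.58 ± 0.165 (SD, n = 10) UT to 2.41 ± 0.374 (SD, n = 10) with E. Their sum went from 150 ± 12.8 to 129 ± 12.5 TPM.

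TEAD2 (ENSG00000074219, chromosome 19 from 49340595 to 49362457) rose most of the 10. UT it lay between 39.0 TPM (Y643F) and 46.5 TPM (Y634F) with a median of 42.6, and with E between 94.3 TPM (WT) and 110.3 TPM (PAR) with a median of 102.5 TPM. The lowest E library thus lay far above the highest UT one. In log2 this was a difference of 1.25 (standard error 0.039, adjusted p = 8.93e-13 in limma), a geometric mean TPM ratio of 2.41. The ratio of the single lines ran from 2.12 in WT to 2.75 in KD.

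TEAD3 (ENSG00000007866, chromosome 6 from 35473597 to 35497076) also rose in 10 of 10 lines. It went from between 22.5 and 27.3 TPM (median 24.6) UT to between 38.9 and 46.3 TPM (median 41.0) with E, without overlap. PAR was the highest line in both treatments. In limma the log2 difference was 0.72 (standard error 0.041, adjusted p = 5.59e-10 in limma), a TPM ratio of 1.67.

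TEAD4 (ENSG00000197905, chromosome 12 from 2959330 to 3040673) went the other way and fell in 10 of 10 lines. UT values lay between 58.1 TPM (PAR) and 71.0 TPM (KD) with a median of 62.8, and E values between 24.9 TPM (PAR) and 53.2 TPM (Y698F) with a median of 43.0. The treatments did not overlap, and PAR with E stood apart from the other 9 lines, whose lowest value was 39.2 TPM. The fall was one of -0.59 in log2 (standard error 0.067, adjusted p = 1.09e-06 in limma), or -0.53 with PAR left out.

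TEAD1 (ENSG00000187079, chromosome 11 from 12674591 to 12944483) rose least of those called, and not in every line. UT values ran from 22.8 TPM (Y750F) through a median of 29.03 to 35.7 TPM (PAR), and E values from 28.0 TPM (PAR) through 36.5 to 42.2 TPM (Y643F). The overlap came from PAR alone. In PAR it fell from the highest UT value of the 10 lines to the lowest E value, and in the other 9 lines it rose with no overlap of the treatments. Over the 10 lines the log2 difference was 0.32 (standard error 0.078, adjusted p = 0.00181 in limma) and 0.39 without PAR.

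VGLL4 (ENSG00000144560, chromosome 3 from 11556070 to 11771350), whose protein competes with YAP for TEADs, rose in 10 of 10 lines. Values ran from 31.3 through 33.7 to 42.3 TPM UT, highest in PAR, and from 52.0 through 57.8 to 69.2 TPM with E, highest in KO. The treatments did not overlap. VGLL4 thus had a log2 difference of 0.72 (standard error 0.045, adjusted p = 1.21e-09 in limma), a TPM ratio of 1.67. The smallest ratio, 1.40, was that of PAR. Per TPM of YAP1 and WWTR1 together, VGLL4 went from 0.237 ± 0.0486 (SD, n = 10) UT to 0.456 ± 0.0627 (SD, n = 10) with E.

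LATS2 (ENSG00000150457, chromosome 13 from 20973032 to 21061547) encodes the kinase that is also a known YAP target. It rose in 10 of 10 lines. UT values were 5.13 TPM in PAR and 8.09 to 10.8 TPM in the others, with a median of 9.32 over the 10. With E they were 7.40 TPM in PAR and 16.04 to 21.8 TPM in the others, with a median of 17.8. Because of PAR the treatments overlapped, and among the other 9 lines they did not. As LATS2 met the 10 TPM filter only through its treated libraries, its test is taken from the wider fit described next for LATS1, where the log2 difference was 0.84 (standard error 0.074, adjusted p = 2.01e-07 in limma), and the TPM ratio ran from 1.44 in PAR to 2.67 in Y821F.

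LATS1 (ENSG00000131023, chromosome 6 from 149658153 to 149718256), the paralogous kinase, was low throughout and was tested only in a wider fit, of 14111 genes, that required a mean of 1 TPM. That fit called 71.8% of its genes, 35.5% higher and 36.3% lower. UT it lay between 7.32 and 8.71 TPM with a median of 8.16, and with E between 5.30 TPM (PAR) and 9.15 TPM (KO) with a median of 7.46. Its values with E covered those of UT on both sides. The log2 difference was -0.11 (standard error 0.084, 95% interval -0.29 to 0.069, adjusted p = 0.245 in limma, 0.343 with no filter), with 5 lines higher and 5 lower. The ratio of LATS2 to LATS1 TPM moved from 1.11 ± 0.232 (SD, n = 10) UT to 2.30 ± 0.582 (SD, n = 10) with E, and in PAR from 0.622 to 1.40.

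NF2 (ENSG00000186575, chromosome 22 from 29603556 to 29698598), upstream of the kinases, fell in 10 of 10 lines. UT it lay between 24.6 and 28.6 TPM in 9 lines and at 39.7 TPM in PAR, with a median of 27.1. With E it lay between 13.7 TPM (KO) and 20.9 TPM (WT) with a median of 17.1. No E value reached the UT range. For NF2 the log2 difference was -0.68 (standard error 0.056, adjusted p = 3.30e-08 in limma), and the TPM ratio ran from 0.491 in KD to 0.732 in WT.

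**Figure D2:**
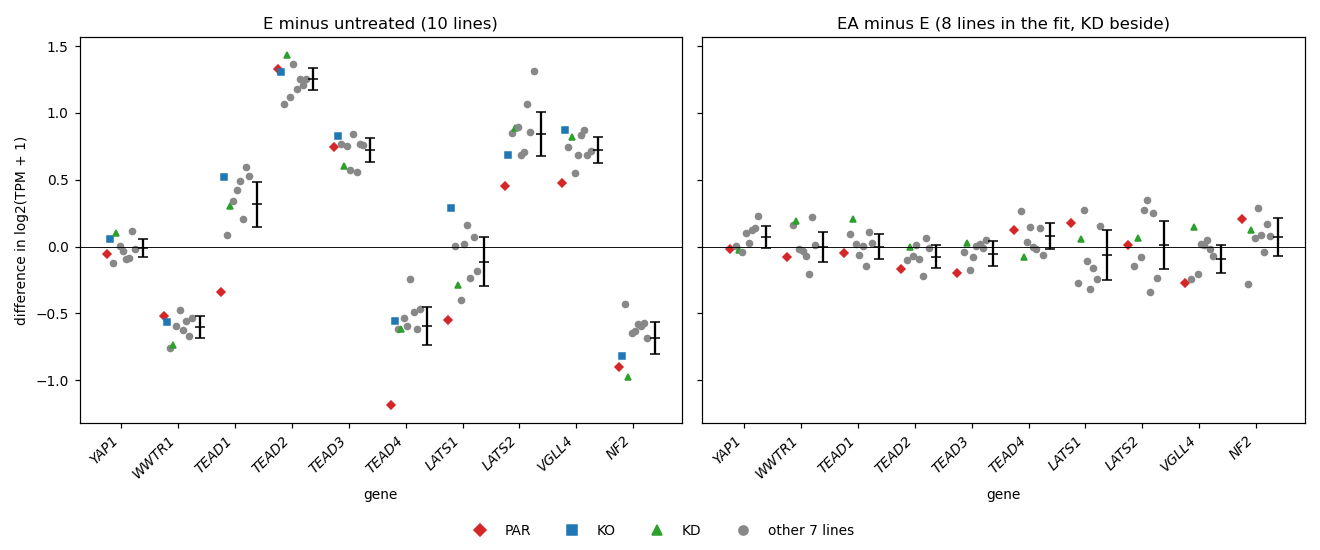
Difference in log2(TPM + 1) of each gene within each line, E minus UT on the left and EA minus E on the right, on 1 vertical scale; points are lines, with PAR, KO and KD marked, and the black bar is the limma mean with its 95% interval. On the left 8 genes lie away from 0, from NF2 at -0.68 to TEAD2 at 1.25, and on the right every interval includes 0.

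With E both the sum of the TEAD genes and the share of each gene in it differed from UT. The summed TPM of the 4 genes was 159 ± 5.72 (SD, n = 10) UT and 222 ± 9.03 (SD, n = 10) with E. TEAD4 made up 39.7 ± 2.25% of the sum UT and was the largest part in every line, between 35.3% (PAR) and 42.9% (KD). With E it made up 18.9 ± 2.80%, and TEAD2 was the largest part in every line, between 44.0% (Y698F) and 52.6% (PAR). TEAD2 went from 26.7 ± 1.61% to 46.2 ± 2.38% and TEAD3 from 15.6 ± 0.923% to 18.8 ± 1.37%. TEAD1, though its TPM rose, went from 18.0 ± 2.08% to 16.2 ± 1.37%, with overlapping ranges. The shares stayed with EA, at 44.96 ± 2.74% TEAD2 and 20.1 ± 2.76% TEAD4 (SD, n = 9). These shares are descriptions with no test.

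**Figure D3:**
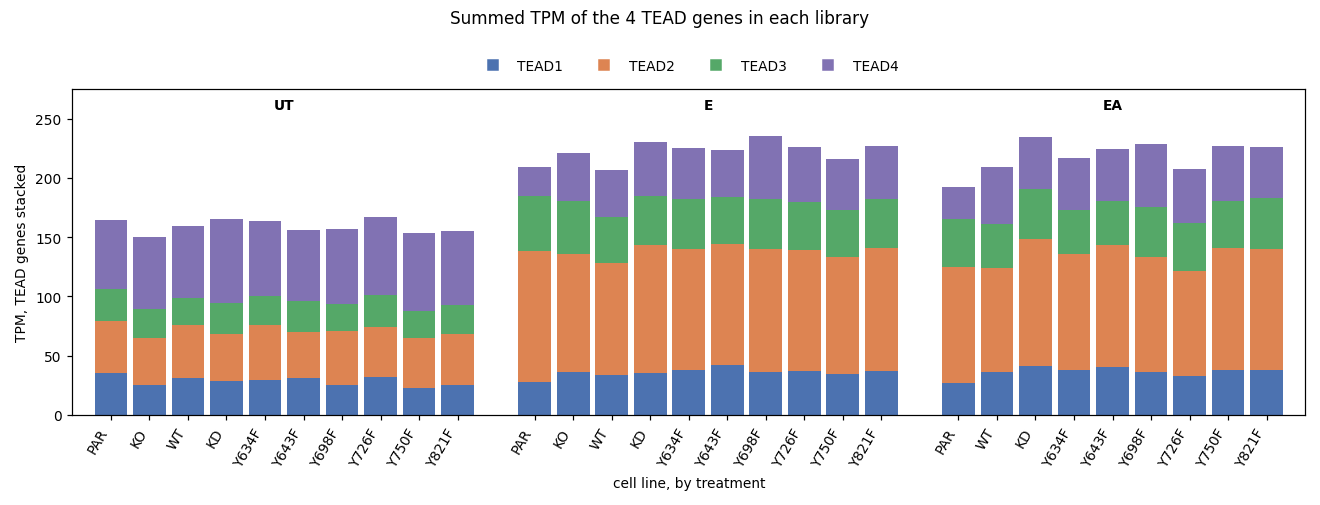
Summed TPM of TEAD1, TEAD2, TEAD3 and TEAD4 (stacked bars, from 0) in each library, by treatment and line. TEAD4 is the largest part of each UT bar and TEAD2 of each E and EA bar, and the mean sum goes from 159 to 222 TPM with E.

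EA was compared with E to ask what AF154 adds under EGFR inhibition, in PAR, WT and the 6 lines with a tyrosine change, 8 in all. The paper reports that only a minority of the cells in the transduced lines expressed AXL. It also reports that E activates AXL in PAR without AF154. In its proliferation and apoptosis assays, Y643F and Y750F are reported to resemble KO or KD cells. Bulk RNA averages over all cells of a dish, and how far any of these points lowers the differences was not tested. None of the 9 genes tested passed the threshold in limma, and none had an unadjusted p under 0.05. Across all genes the same fit called 214 of 9085, or 2.36% (1.88% higher and 0.473% lower), so that 79.9% of the calls were higher with EA, or 64.9% of 205 with libraries centred on their medians. The count of all genes rested on single lines, with 10 calls without Y634F, 18 without Y643F, 55 without PAR or Y698F, 76 without Y750F, 94 without Y821F, 131 without WT and 188 without Y726F. The 9 log2 differences lay between -0.091 (VGLL4) and 0.079 (TEAD4). KD, shown beside them as a single pair with no error, had differences between -0.076 (TEAD4) and 0.20 (TEAD1).

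For YAP1 the log2 difference was 0.071 (standard error 0.039, 95% interval -0.013 to 0.16, adjusted p = 0.313 in limma), with 6 of 8 lines higher. EA values ran from 59.7 TPM in PAR through a median of 96.6 to 109.6 TPM in Y821F over the 8 lines, and E values from 60.6 through 92.7 to 97.6 TPM. In PAR, which carries its own AXL, YAP1 was 60.6 TPM with E and 59.7 TPM with EA. The lines in which it was higher by more than 0.1 on the log2 scale were Y643F, Y726F, Y750F and Y821F, and Y821F differed most, from 93.3 to 109.6 TPM. WWTR1 was at a median of 37.99 TPM with E and 38.09 TPM with EA over the same 8 lines, a log2 difference of -0.0014 (95% interval -0.11 to 0.11, adjusted p = 0.991 in limma).

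TEAD2 had a log2 difference of -0.075 (95% interval -0.16 to 0.0090, adjusted p = 0.290 in limma) and was lower with EA in 6 of 8 lines. The values were -0.055 for TEAD3 (adjusted p = 0.487 in limma), 0.079 for TEAD4 (adjusted p = 0.345) and -0.00057 for TEAD1 (adjusted p = 0.995). For VGLL4 the value was -0.091 (95% interval -0.19 to 0.013, adjusted p = 0.299 in limma). PAR, WT and Y634F had the larger VGLL4 differences, -0.27, -0.24 and -0.21, with PAR going from 59.1 to 48.8 TPM, while the other 5 lines lay between -0.067 and 0.047. LATS2 had a difference of 0.010 (95% interval -0.17 to 0.19, adjusted p = 0.957 in limma), with 4 lines higher and 4 lower, and LATS1 one of -0.063 (adjusted p = 0.757 in limma in the wider fit, which called 0.475% of its genes, 0.411% higher and 0.0638% lower, and 0.786 with no filter). NF2 was higher in 6 of 8 lines with a mean of 0.070 (95% interval -0.071 to 0.21, adjusted p = 0.566 in limma). Its pairs ran from -0.28 in WT (20.9 to 17.1 TPM) to 0.29 in Y643F (15.5 to 19.1 TPM). The bound farthest from 0 among the 9 intervals was the upper one of NF2.

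EA against UT shares its UT libraries with the first comparison and its EA libraries with the second, and is given for the values alone. In the 8 lines 8 of the 9 genes tested passed the threshold in limma, beside 70.6% of all genes, 33.1% higher and 37.6% lower. LATS2 met the filter of that fit only through its treated libraries. In the wider fit LATS2 passed as well (adjusted p = 3.68e-06 in limma), and 9 of the 10 genes did so, beside 62.7% of all genes. The log2 differences were 1.15 for TEAD2, 0.86 for LATS2, 0.67 for TEAD3, 0.60 for VGLL4 and 0.29 for TEAD1, and -0.59 for WWTR1, -0.56 for NF2 and -0.52 for TEAD4. TEAD1 was the least secure of them, with an adjusted p of 0.0224 in limma that went to 0.0651 without Y750F and was above the threshold without Y698F or Y821F also. YAP1 had a difference of 0.036 (95% interval -0.078 to 0.15, adjusted p = 0.548 in limma), and passed at 0.0486 only after quantile normalization, where its difference was 0.12. Over its alternatives the adjusted p of YAP1 ran from 0.0486 to 0.948. LATS1 was lower in 8 of 8 lines, at -0.20 (standard error 0.071, adjusted p = 0.0273 in limma in the wider fit, and 0.0168 with no filter). That fit called 62.7% of its genes, 31.1% higher and 31.6% lower. Its values went from 7.71 to 8.71 TPM UT to 6.13 to 8.11 TPM with EA and overlapped.

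The genes differed in how much of their variation went with the cell line and how much with the treatment. Over the 9 lines with all 3 treatments, treatment held 98.1% of the sum of squares of log2(TPM + 1) for TEAD2, 94.2% for TEAD3, 90.3% for WWTR1, 87.9% for VGLL4 and 73.5% for NF2. The median over all 9085 genes was 52.6% for treatment and 21.8% for line. At the other end, YAP1 had 91.8% with the line and 1.35% with treatment. Most of that was PAR. Without PAR, 45.2% of the sum of squares of YAP1 went with the line, 12.1% with treatment and 42.7% with neither. LATS2 moved from 56.5% to 90.0% for treatment when PAR was left out, TEAD4 from 59.7% to 84.5% and TEAD1 from 43.2% to 71.4%. LATS1 remained the gene with the largest remainder, 42.1% with PAR and 47.1% without.

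**Figure D4:**
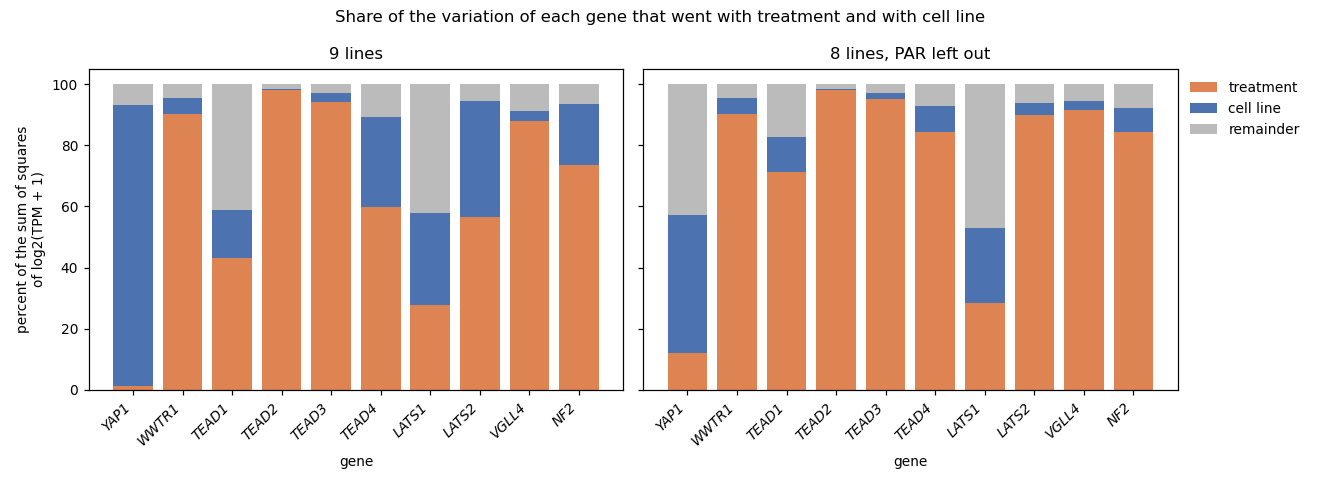
Percent of the sum of squares of log2(TPM + 1) that went with treatment, with cell line and with neither (stacked, 0 to 100%), for each gene over the 9 lines with all 3 treatments (left) and without PAR (right). YAP1 is the gene with most of its variation between lines, 91.8% on the left and 45.2% on the right.

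PAR stood apart from the 9 lines derived from it, and 1 parental line allows no test. YAP1 in PAR was 63.1 TPM UT, 60.6 TPM with E and 59.7 TPM with EA, while the other lines lay between 86.9 and 109.6 TPM over the 3 treatments. Relative to the median of the other lines, PAR was at 0.669, 0.634 and 0.608. LATS2 in PAR was at 0.534 of that median UT, 0.410 with E and 0.396 with EA. TEAD4 in PAR was at 0.920 UT but 0.574 with E and 0.604 with EA. These 3 of the 9 genes lay outside the other lines on the same side in all 3 treatments, as did 20.5% of all 9085 genes. NF2 in PAR was above the others UT (39.7 against at most 28.6 TPM) and with EA (24.1 against at most 19.7 TPM), and inside their range with E. WWTR1 in PAR lay inside the range of the others in every treatment, at 53.7, 37.3 and 35.3 TPM. The share of mitochondrially encoded RNA set PAR apart with E, at 17.4% against 12.3% to 14.2% in the other lines. UT the share was 14.4% in PAR and 11.4% to 14.2% in the others. With EA it was 16.4% in PAR and 12.9% to 17.4% in the others, so PAR was inside their range. Its part in the PAR values was not tested. In KO, made without the lentiviral transduction, the UT values were 95.3 TPM for YAP1, 10.8 TPM for LATS2 and 24.9 TPM for NF2. These are single libraries, and a part of transduction was not tested. The knockout of the cells' own AXL and other steps of making KO cannot be told apart here.

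Among the 9 derived lines the differences were smaller and seldom kept. KO lay above the other 8 for WWTR1, at 64.3 TPM UT and 43.2 TPM with E, and 6.81% of all genes had KO outside on the same side in both treatments. WT had the lowest TEAD3 (22.5 and 38.9 TPM) and the highest NF2 (28.6 and 20.9 TPM) in UT and E, where 5.71% of all genes did so, and was inside the range for both with EA. Y643F had the lowest TEAD4 and Y750F the lowest WWTR1 of these lines in UT and E, beside 5.94% of all genes with Y643F outside and 5.28% with Y750F outside, and neither was lowest with EA. None of the 9 genes tested set KD apart from the other derived lines in both UT and E, beside 2.89% of all genes.

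At the level of single transcripts, which are the estimates of the authors' quantification, most genes kept their main forms across treatments. TEAD3-201 held 96.3 ± 3.08% of TEAD3 UT and 94.1 ± 2.89% with E (SD, n = 10). LATS2-201 held 95.7 ± 6.92% and 90.7 ± 9.32% of LATS2. TEAD4-202 held 68.0 ± 1.96% and 65.6 ± 6.58% of TEAD4, so the fall of the gene was mostly that of this form, from 42.9 to 27.4 TPM. For WWTR1, WWTR1-201 held 55.7 ± 3.01% and 55.3 ± 4.33%, and WWTR1-203 35.1 ± 3.06% and 36.4 ± 2.91%. In YAP1, the forms YAP1-201 (38.8 ± 3.24% UT, 40.5 ± 3.82% with E) and YAP1-208 (20.5 ± 2.65% UT, 17.6 ± 2.75% with E) were the largest. The rise of TEAD2 was spread over 4 forms. TEAD2-201 went from 15.4 to 33.9 TPM, TEAD2-208 from 3.86 to 16.4 TPM, TEAD2-202 from 4.27 to 15.2 TPM and TEAD2-204 from 8.74 to 14.2 TPM. The shares of the last form ranged from 5.85% to 33.8% between UT lines. With 1 library per line, the error of the estimates and differences between lines cannot be told apart. All transcripts named are annotated as protein coding.

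The other genes of the pathway were read from lists written with earlier results of these data known, and their counts describe rather than test. The lists were counted only in the fit that required a mean of 10 TPM. A gene low in UT could meet that mean through its treated libraries. The lists share some genes, such as AJUBA, AMOTL2, FJX1 and PTPN14. In the kinase module, the genes that act on or with LATS, 28 were in the table and 22 passed the filter. With E against UT 11 of the 22 rose, 6 fell and 5 did not pass, so 77.3% were called beside 79.0% of all genes, and the median log2 difference was 0.13 beside -0.037 for all genes. STK38L, an NDR kinase of the LATS family, rose from 33.3 ± 3.33 to 71.9 ± 8.62 TPM (SD, n = 10), a log2 difference of 1.09. Its relative STK38 rose by 0.77 and FRMD6, a FERM-domain protein related to merlin, by 0.58. MAP4K4, a kinase that can phosphorylate LATS, fell from 123 ± 8.58 to 77.4 ± 6.08 TPM, a difference of -0.67. RASSF1, a scaffold of the upstream kinases, fell from 16.6 to 10.7 TPM, and TAOK3, which can activate those kinases, from 34.8 to 28.8 TPM. Each of these 6 moved the same way in 10 of 10 lines.

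Of 19 tested genes listed as inhibitors within the pathway (24 listed), 11 rose, 7 fell and 1 did not pass. Thus 94.7% were called beside 79.0% of all genes, with a median of 0.095 beside -0.037. NEDD4, a ubiquitin ligase that can target LATS, rose from 52.5 ± 10.4 to 143 ± 19.0 TPM (SD, n = 10), and AJUBA, a LIM protein that binds LATS, from 29.5 ± 3.82 to 66.0 ± 3.98 TPM. ZYX rose by 0.91 on the log2 scale. LIMD1, a LIM protein of the same group, fell by 0.31 and PPP2CA, the catalytic subunit of the phosphatase PP2A, fell by 0.41. DCAF1, part of a ubiquitin ligase that merlin inhibits, fell from 21.0 to 14.4 TPM.

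Of 26 tested junction and polarity genes (30 listed), 13 rose, 8 fell and 5 did not pass (80.8% called), with a median of 0.11. AMOTL2, an angiomotin relative that binds YAP, rose from 52.0 ± 5.39 to 102 ± 10.8 TPM (SD, n = 10) and CDH1 (E-cadherin) from 82.2 ± 10.5 to 131 ± 12.3 TPM. FJX1, the relative of the fly kinase four-jointed, fell by 1.72 on the log2 scale, YWHAH, a 14-3-3 protein, by 0.84 and the polarity protein SCRIB by 0.43. The list of 22 genes that bind or work with TEADs, YAP or TAZ gave 16 tested, of which 6 rose, 6 fell and 4 did not pass (75.0% called), with a median of 0.0011. VGLL3, a relative of VGLL4, rose from 8.87 ± 1.63 to 28.0 ± 2.45 TPM (SD, n = 10) and passed the filter through its treated libraries, VGLL1 rose from 138 to 185 TPM and NCOA3 from 16.7 to 25.9 TPM. FOSL1, an AP-1 subunit that shares target sites with TEADs, fell from 223 ± 19.8 to 18.3 ± 4.68 TPM, JUN by 0.46 on the log2 scale and CTBP2 by 0.34.

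A list of 22 genes known as targets of YAP and TAZ, which includes LATS2 and AXL, had 19 tested: 13 rose, 5 fell and 1 did not pass. Its median log2 difference was 0.58 beside -0.037 for all genes, the largest of the 5 lists, and 94.7% of it was called beside 79.0% of all genes. LATS2 is among the 19, though it met the 10 TPM filter only through its treated libraries. IGFBP3 rose from 216 ± 71.4 to 1204 ± 301.5 TPM (SD, n = 10), TGFB2 from 23.4 ± 3.74 to 114 ± 10.2 TPM and CCDC80 from 59.4 ± 8.30 to 263 ± 23.9 TPM, while NT5E fell from 95.0 ± 20.1 to 18.0 ± 3.41 TPM, FJX1 as given above, and ASAP1 by 0.32 on the log2 scale. All of these genes moved the same way in 10 of 10 lines. Between EA and E no tested gene of the 5 lists passed the threshold in limma, beside 2.36% of all genes.

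The genes whose log2(TPM + 1) followed each member most closely over the 29 libraries were found by Pearson's r, which here mostly follows the shared step between UT and treated libraries and the shared lines. For TEAD2 they were RTN2 (r = 0.988) and YPEL5 (0.986), for TEAD3 GSN (0.982) and VAT1 (0.980), for WWTR1 CAPN8 (0.967) and TIMP3 (0.963), and for NF2 EIF4G1 (0.965) and DDAH1 (0.964). VGLL4 was followed by PTTG1IP (0.963) and FGD3 (0.959), LATS2 by LOXL4 (0.959) and APOBEC3B (0.958), TEAD4 by MYEOV (0.947) and HNRNPA3 (0.937), and TEAD1 by N4BP2L2 (0.909) and MED13L (0.881). For YAP1 they were PEG10 (0.927) and SEC14L1 (0.917), and without the PAR libraries these values were 0.279 and 0.455, so they rested on PAR. Between the members, TEAD2 and TEAD3 were most alike (r = 0.964), and YAP1 and WWTR1 had an r of 0.0853.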

How the data were processed

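RNA was measured in 29 libraries of 10 PC9 lines, grouped by the line and treatment in the sample labels, and none was pooled. The authors deposited TPM per transcript. Libraries were sequenced and aligned by a service provider. The submitters' processing notes name kallisto and GRCh38, without a version, and the annotation and strand handling are not given in the sources used here, so reads of overlapping genes on opposite strands may not be told apart. TPM keeps no depth, so that errors here rest on how far the lines differ.

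By identifier, 169797 of the 188753 deposited transcripts were found in GENCODE 29. They held 97.0% to 97.4% of the TPM of a library, and were summed to 35579 genes. Gene coordinates are those of GENCODE 29. The methods remove genes under 10 TPM, and here the 9085 genes whose 29 libraries averaged 10 TPM or more were tested as log2(TPM + 1), a scale that understates changes of low genes. Tests used limma 3.58.1 in R 4.3.3 (eBayes with trend) with the line as a block, which pairs libraries of the same cells, and Benjamini-Hochberg adjustment over all genes with a threshold of 0.05. P-values are two-sided. LATS1, and LATS2 with E against UT and with EA against UT, were tested in a fit of the 14111 genes that averaged 1 TPM or more. Levels, shares, transcripts and PAR are descriptions without a test. The highest correlation between a pair of libraries in log2(TPM + 1) was 0.9914, so no libraries held identical values. The steps were tested on simulated data.

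The members and lists were chosen with earlier results of these data known. The genes named were the members, AXL, up to 3 of each list that rose most and 3 that fell most with E among those that passed and had the same direction in each line, any that passed between EA and E, and the 2 genes most like each tested member. Tables and plots were made with pandas 2.3.3, numpy 2.4.6 and matplotlib 3.10.9 in Python 3.11.15.

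Alternatives were a pseudocount of 0.1 in place of 1, a mean of at least 1 TPM, at least 10 TPM in every library, no filter, median centring, quantile normalization, TPM rescaled without mitochondrial genes, protein coding transcripts only, no block, other line sets and leaving out each line.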

Additional observations from a re-analysis of the deposited data

Results flagged for a closer look

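Each gene's TPM in UT, E and EA and its log2 differences in the 3 comparisons were searched for a line whose gap to the nearest other line was large for the range of the group (Dixon's criterion at 95%). Of 60 groups, 11 held such a line, and the line was PAR in all 11. The criterion by itself allows about 1 in 20, or 3 groups. How many of all genes meet it was not computed, so the 11 are not read as an excess in these genes. Over all 9085 genes, PAR was outside the other lines for 53.8% UT, 53.2% with E and 52.0% with EA, so a PAR value outside the rest was common among all genes. The groups of 1 gene share their libraries, so the 11 are not independent. For YAP1, PAR was at 63.1 TPM UT, 60.6 TPM with E and 59.7 TPM with EA. For LATS2 it was at 5.13 TPM UT and 7.40 TPM with E. For NF2 it was at 39.7 TPM UT and 24.1 TPM with EA, above the other lines. For TEAD4 it was at 24.9 TPM with E and 27.3 TPM with EA, and its log2 differences from UT were -1.19 with E and -1.06 with EA, where the other lines lay between -0.62 and -0.24 with E.

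TEAD1 moved in opposite directions in PAR and in the lines derived from it. In PAR its log2 difference from UT was -0.34 with E and -0.39 with EA. In the 9 other lines it was between 0.089 and 0.60 with E, and in the 8 other lines with EA between 0.062 and 0.71. With 1 parental line this difference was not tested, and the 2 comparisons share the UT libraries. The share of all genes in which PAR moved opposite to every other line was not computed.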

How the results depend on the processing

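The counts of member genes called with E against UT and between EA and E held under every alternative run, at 8 and 0, except that LATS2 was not tested when at least 10 TPM was required in every library, which left 7 of 8. With EA against UT the count was between 7 and 8 with a line left out, TEAD1 being lost without Y698F, Y750F or Y821F and with no filter (adjusted p = 0.0922 in limma), and 9 after quantile normalization and in the fit of genes of at least 1 TPM. With EA against UT, quantile normalization called 70.8% of all genes and the fit of genes of at least 1 TPM 62.7%. Over all genes, E against UT gave 6999 to 7256 calls and EA against UT 6125 to 6512 with a line left out. EA against E was far less stable: 214 calls became 67 with a mean of at least 1 TPM, 6 with no filter, 361 with protein coding transcripts only, 9 with no replicate block, 120 with the KD pair included, and 10 (without Y634F) to 188 (without Y726F) with a line left out. Fewer or more genes tested or samples used set some of these, and otherwise the cause was not tested. The block pairs libraries of the same cells, and leaving it out changed no member's call. Signs changed for values near 0 and with no call. YAP1 with E against UT was 0.035 after median centring and 0.073 after quantile normalization. Between EA and E, WWTR1 was 0.011 rescaled without mitochondrial genes, 0.0199 with protein coding transcripts only and 0.0203 with the KD pair, TEAD1 was 0.012, 0.0014 and 0.022 under the same 3, and LATS2 was -0.0056 after median centring, -0.019 after quantile normalization and -0.015 with protein coding transcripts only. With a line left out these ran from -0.033 to 0.028 for WWTR1, -0.0165 to 0.0202 for TEAD1 and -0.038 to 0.0605 for LATS2. TPM keeps no depth, so counting error could not be given for any gene.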

Other observations

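Some relatives of the 10 genes were low in these cells. VGLL2 did not exceed 0.0597 TPM in any library, FRMD1 0.141 TPM, RUNX3 1.83 TPM and TP73, a p53 relative that can bind YAP, 5.53 TPM. The protocadherins DCHS1 and DCHS2 did not exceed 0.226 and 0.361 TPM, and CRB1 0.0702 TPM against 23.8 to 46.7 TPM for its relative CRB3. Of the VGLL family, VGLL1 was the most abundant, between 118 and 215 TPM, above VGLL4 and VGLL3 in each treatment mean. Of the LATS-binding MOB proteins, MOB1A lay between 57.5 and 82.0 TPM and MOB1B between 5.49 and 10.4 TPM.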
